A study of Caenorhabditis elegans with 24 samples.

Results

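This section is about the interaction of htz-1 and daf-16 in worms that carry a daf-2 mutation. For every gene, the effect of the htz-1 mutation in daf-16;daf-2 worms (daf-16;daf-2;htz-1 minus daf-16;daf-2) was set against its effect in daf-2 worms (daf-2;htz-1 minus daf-2). The groups were the triple mutant, with the alleles mu86 of daf-16, e1370 of daf-2 and bon101 of htz-1, the daf-16 double mutant with mu86 and e1370, the htz-1 double mutant with e1370 and bon101, and the daf-2 mutant with e1370 alone. Each had 4 libraries, 16 of the 24 libraries of the series. The other libraries, 4 of the htz-1 single mutant with bon101 and 4 of wild type (wt, labelled N2), entered the fit, where they share in the estimate of the spread, and their means lie outside the contrast. All worms were Caenorhabditis elegans on the first day of young adulthood, grown at 20 °C on OP-50-1 Escherichia coli, and RNA came from whole animals. All 16 libraries share the e1370 allele, so neither background is wild type. Of 21689 genes in the file, 14482 reached an average of 3 across the 24 libraries and entered the test.

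The receptor for insulin-like signals of the worm is the product of daf-2, and daf-16 encodes the FOXO transcription factor that becomes active when receptor signalling is low and on which the long life of daf-2 mutants depends. The gene htz-1 encodes H2A.Z, a histone variant that takes the place of H2A in nucleosomes, often near the start of genes. In an adult hermaphrodite, whole-animal RNA includes the germline, stored sperm and any embryos still inside the mother.

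Values are regularized log2 (rlog) values, so a difference of 1 is a doubling on this scale, and low genes are shrunk toward their mean. The 16 libraries had medians of 7.42 to 7.81 over the genes tested, and their read depth is unknown. Markers of intestine, body-wall muscle and neurons, averaged over 28, 35 and 28 genes, had mean values of 9.70 to 11.93, 10.64 to 11.73 and 6.40 to 7.28 in these libraries, so transcripts of these tissues were present in each. Library 3 of the triple mutant stood apart. Its root mean square distance to its group was 0.81, against 0.51 to 0.60 for the other triple mutant libraries. It had high values of genes that were lower in the daf-16 double mutant than in daf-2 (659 genes, median 7.22, against 5.89 to 6.27 in the other triple mutant libraries and 7.17 to 7.35 in the htz-1 double mutant). The gene cpr-2, which encodes a cathepsin B-like protease and was picked after its values were seen, was at 12.604, against 3.40 to 3.85 in the other 3, 12.91 to 13.50 in the htz-1 double mutant and 10.92 to 12.80 in daf-2. Its daf-16 value was 9.72, against 8.47 to 9.55 in the other 3. Over all tested genes it lay nearer to the other libraries of its own group than to the htz-1 double mutant, at a distance of 1.05. Whether its genotype is as labelled was not tested, and the values of sod-3, mtl-1, tts-1 and the DAF-16-induced genes in the triple mutant depend on that. Library 1 of daf-2 also stood apart, with a distance of 0.76 against 0.50 to 0.61, and had low sperm and collagen values. Results are therefore given with and without these libraries where that matters.

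The difference was not called for the transcripts of the mutated genes. The htz-1 gene (WBGene00019947, chromosome IV, 4446216 to 4446999 of WBcel235) had 11.204, 11.51, 11.32 and 11.70 in the triple mutant and 10.64, 10.77, 10.93 and 10.90 in the daf-16 double mutant, against 11.35, 11.34, 11.35 and 11.28 in the htz-1 double mutant and 11.18, 10.84, 10.67 and 11.30 in daf-2, and the difference of the htz-1 effects was 0.29 ± 0.22 (SE, adjusted p = 0.344). Its transcript was therefore not lower in the libraries that carry bon101, and these values do not check the labels. For daf-16 (WBGene00000912, chromosome I, 10750498 to 10776703) the values were 8.47, 9.53, 9.72 and 9.55 in the triple mutant and 9.99, 9.70, 9.94 and 9.83 in the daf-16 double mutant, against 9.94, 10.34, 10.22 and 10.18 in the htz-1 double mutant and 10.23, 10.26, 10.48 and 10.30 in daf-2, a difference of -0.40 ± 0.29 (SE, adjusted p = 0.32). The daf-2 gene differed by 0.24 ± 0.44 (SE, adjusted p = 0.731).

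The htz-1 effect differed between the backgrounds for 3838 genes (26.5%). Of the genes tested, 1449 (10%) had a more positive htz-1 effect in the daf-16 background than in the daf-2 background and 2389 (16.5%) a more negative one (limma, Benjamini-Hochberg adjusted p under 0.05), which are called higher and lower below. Of these, 1048 (7.24%) and 2088 (14.4%) differed by at least 1, and 370 (2.55%) and 959 (6.62%) by at least 2. In each of the 4 labelled batches, which hold 1 library per group, the sign was that of the pooled value for 1387 of the higher genes (9.58% of all tested) and 2235 of the lower genes (15.4%). The median of all genes was -0.11. The split depended on scaling: with every library centred on its median it was 2256 higher and 1778 lower, with a median of all genes of 0.17, and with quantile normalization 2044 and 1971. The sign of a difference near 0 therefore depended on the scaling. Without library 3 of the triple mutant 1511 genes were higher and 2498 lower, and 1317 and 2182 of the calls were shared. Without library 1 of daf-2 the counts were 1106 and 1974. Since the labels do not say whether libraries came from separate cultures, the p-values reflect library-to-library spread, which may be technical.

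**Figure D1:**
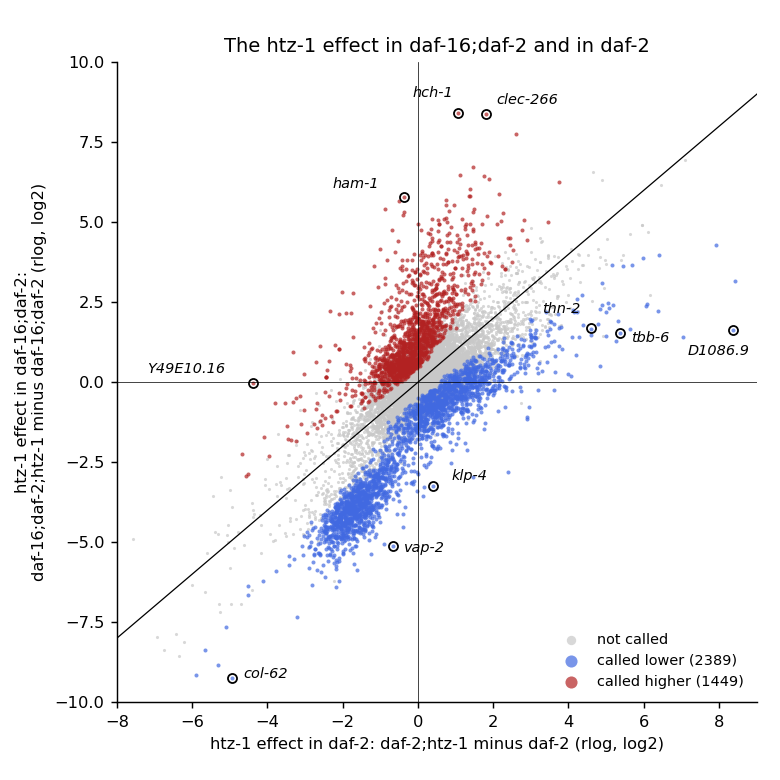
The htz-1 effect in daf-16;daf-2 (vertical axis, daf-16;daf-2;htz-1 minus daf-16;daf-2) against that in daf-2 (horizontal axis, daf-2;htz-1 minus daf-2), both as rlog differences on a log2 scale, for 14482 genes. Red points are the 1449 genes called higher and blue points the 2389 called lower, grey points were not called, the diagonal marks equal effects, and the dense blue cloud at the lower left holds genes that fell in both backgrounds and further in daf-16;daf-2.

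In the daf-16 background the htz-1 mutation raised 3487 genes (24.1%) and lowered 3514 (24.3%), and in the daf-2 background it raised 2950 (20.4%) and lowered 2918 (20.1%). The genes called for the difference fell into a few patterns. Among the higher genes, 856 (59.1%) rose with the htz-1 mutation in the daf-16 background and had no called effect in the daf-2 background, with median effects of 1.42 and -0.02. Another 246 fell in the daf-2 background alone, 159 rose in both and more in the daf-16 background, 39 fell in both and less so there, 72 had called effects of opposite sign, and 77 had neither effect called. Among the lower genes, the main pattern was a fall in both backgrounds that was larger in the daf-16 background, with 993 genes (41.6%) and median effects of -3.97 and -1.71. A further 591 fell in the daf-16 background alone, 522 rose in the daf-2 background alone, 134 rose in both and less in the daf-16 background, 91 had called effects of opposite sign, and 58 had neither called. An effect called in one background and not in the other differs between them here because the difference itself was tested.

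The largest positive difference was that of hch-1 (WBGene00001828, chromosome X, 14696411 to 14699977), which encodes the protease that digests the eggshell when the larva hatches. Its values were 10.56, 10.52, 10.52 and 10.13 in the triple mutant and 1.87, 2.14, 2.27 and 1.798 in the daf-16 double mutant, against 4.06, 5.59, 5.98 and 0.86 in the htz-1 double mutant and 3.79, 3.33, 1.82 and 3.30 in daf-2. All 4 triple mutant libraries lay above the other 12, and library 4 of the htz-1 double mutant was lower than the other 3. The htz-1 effect was 8.41 ± 0.65 in the daf-16 background and 1.06 ± 0.65 in the daf-2 background, a difference of 7.35 ± 0.92 (SE, adjusted p = 8.37e-06).

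Genes of hatching and of the first cuticle shared this pattern. Of the 9 genes listed, 8 (88.9%) were higher and 0 lower, against 10% and 16.5% over all genes. Their median was 3.66 against -0.11 over all genes, with within-batch medians of 3.13 to 4.63. The collagen gene dpy-17 had 10.35, 10.60, 11.62 and 10.34 in the triple mutant and 6.25, 6.55, 6.70 and 5.81 in the daf-16 double mutant, against 8.71, 8.70, 8.41 and 8.09 in the htz-1 double mutant and 7.87, 6.90, 7.56 and 8.19 in daf-2, a difference of 3.55 ± 0.39 (SE, adjusted p = 1.45e-06). The gene noah-1 (WBGene00016422, chromosome I, 5874416 to 5878958), which encodes a protein of the apical extracellular matrix that embryos need to elongate, had 9.95, 10.45, 11.01 and 10.18 in the triple mutant and 6.29, 6.31, 6.63 and 6.25 in the daf-16 double mutant, against 6.53, 6.21, 6.85 and 5.43 in the htz-1 double mutant and 6.01, 6.07, 6.67 and 6.71 in daf-2. Its triple mutant values stood at least 3 above all others, and the difference was 4.14 ± 0.39 (SE, adjusted p = 2.37e-07).

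Of 15 genes for apical extracellular matrix, the coat laid down before and under a new cuticle, 11 (73.3%) were higher and 0 lower. Over all genes the shares were 10% and 16.5%. The median of these 15 genes was 3.12. The lipocalin gene lpr-3 differed by 5.61 ± 0.93 (SE, adjusted p = 0.000146) and the moulting gene mlt-11, which encodes a protein with protease-inhibitor domains, by 5.16 ± 0.57 (SE, adjusted p = 1.45e-06). Of the 5 furrow collagen genes tested, which build the circumferential furrows of the cuticle, 3 (60%) were higher, among them dpy-10 (1.79) and dpy-7 (3.47). The hedgehog-related gene wrt-10 differed by 4.52 ± 0.62 (SE, adjusted p = 1.96e-05). It was the single called member of 26 hedgehog-related genes tested of 59 in the file. That share of 3.85% was below the 10% over all genes, and the list median was 0.21. The chitinase gene cht-1 differed by 5.38 ± 0.69 (SE, adjusted p = 1.09e-05). The lectin-like gene clec-266 differed by 6.61 ± 0.72 (SE, adjusted p = 1.2e-06), and its triple mutant values were 12.91, 13.08, 12.58 and 12.59, against 4.34, 4.91, 4.30 and 4.00 in the daf-16 double mutant.

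Most of the tested genes of the early embryo had a more positive htz-1 effect in the daf-16 background. Of 23 tested genes, of 48 on the early zygotic list, which are switched on in the first embryonic divisions and include the sdz and vet families, 17 were higher and 0 lower, with a median of 2.65. These counts make shares of 73.9% and 0%, against 10% and 16.5% over all genes. The other 25 were below the minimum mean, which a low gene can pass through a group where it is high, so the count describes the tested genes and not the list. The tested members' mean level per library was 6.13, 5.89, 6.88 and 5.85 in the triple mutant and 3.20, 3.33, 3.08 and 3.25 in the daf-16 double mutant, against 5.06, 4.96, 5.23 and 4.99 in the htz-1 double mutant and 4.78, 4.32, 4.04 and 4.00 in daf-2. The daf-16 double mutant was thus the lowest and the triple mutant the highest of the 4 groups, and neither overlapped another group. The gene vet-2 had 9.30, 9.497, 10.29 and 9.37 in the triple mutant and 7.28, 7.32, 6.34 and 7.25 in the daf-16 double mutant, against 8.01, 8.45, 7.99 and 8.07 in the htz-1 double mutant and 8.64, 8.06, 8.48 and 7.74 in daf-2, a difference of 2.67 ± 0.35 (SE, adjusted p = 1.22e-05). For sdz-14 the difference was 3.31 ± 0.46 (SE, adjusted p = 2.32e-05). Without library 3 of the triple mutant 17 members of the early zygotic list were higher and 1 lower, with a median of 2.42. The early zygotic gene nhr-2, taken from the nuclear hormone receptor list, differed by 2.78 ± 0.31 (SE, adjusted p = 1.45e-06). Of 178 receptor genes tested of 252 in the file, 7 were higher (3.93%) and 24 lower (13.5%), with a median of -0.31.

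Because whole animals were measured, more cells of a kind and more RNA per cell cannot be told apart. The oocyte and eggshell list, whose transcripts are stored in oocytes and passed to embryos, had mean levels of 12.33 to 13.36 in the triple mutant and 12.12 to 12.62 in the daf-16 double mutant, against 12.09 to 12.53 in the htz-1 double mutant and 12.23 to 12.95 in daf-2.

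Most of the tested embryonic regulators of neurons behaved alike. Of 11 neurogenesis factor genes tested, of 15 in the file, 8 were higher and 0 lower, with a median of 1.77. The shares were 72.7% and 0%, against 10% and 16.5% over all genes. The other 4 were below the minimum mean, which a low gene can pass through a group where it is high. The count therefore describes the tested genes and not the list. The gene ham-1 (WBGene00001820, chromosome IV, 12542183 to 12545737), whose product directs asymmetric division of neuroblasts, had 9.37, 10.14, 9.74 and 9.57 in the triple mutant and 4.08, 4.26, 4.10 and 3.27 in the daf-16 double mutant, against 5.31, 6.13, 5.26 and 4.27 in the htz-1 double mutant and 5.77, 5.47, 5.93 and 5.29 in daf-2. The 4 triple mutant values lay above all others and the 4 daf-16 double mutant values below all others, with a difference of 6.15 ± 0.59 (SE, adjusted p = 2.86e-07). The proneural gene lin-32, an Atonal homologue, differed by 4.19 ± 0.62 (SE, adjusted p = 4.35e-05). Of 16 embryonic lineage factor genes tested, of 20 in the file, 4 were higher (25%) and 0 lower, with the same limit of the filter. Among the higher genes were the T-box gene tbx-11 (4.64) and elt-1 (1.46), which encodes the GATA factor that specifies epidermis. For elt-1 the called htz-1 effect was in the daf-2 background, -1.02 ± 0.24, while the effect in the daf-16 background was 0.44 ± 0.24.

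**Figure D2:**
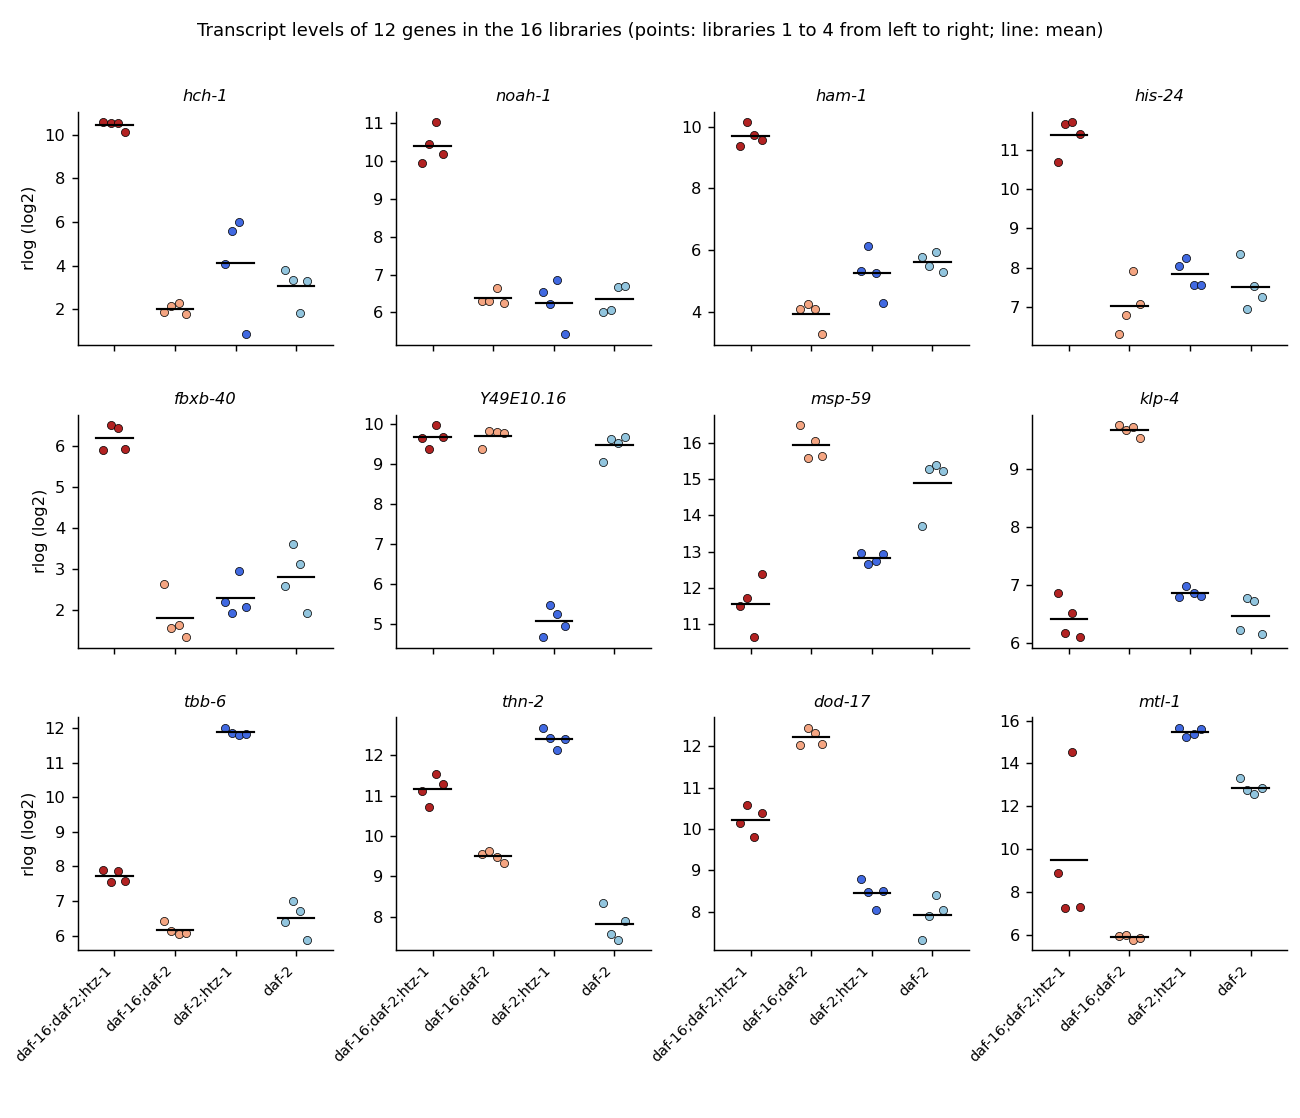
The rlog values (log2) of 12 genes in each library of daf-16;daf-2;htz-1, daf-16;daf-2, daf-2;htz-1 and daf-2, with libraries 1 to 4 from left to right and the group mean as a line. The triple mutant stands above the other 3 groups for hch-1, noah-1, ham-1, his-24 and fbxb-40, the daf-2;htz-1 group stands below for Y49E10.16 and above for tbb-6 and thn-2, and library 3 of the triple mutant is the highest point of its group for mtl-1.

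Most of the fbxb genes that could be tested, which belong to an F-box family, were higher. F-box proteins choose the targets of ubiquitin ligases, and the fbxb and fbxc families are large families of closely related genes in the worm. Of 37 fbxb genes tested of 103 in the file, 34 (91.9%) were higher and 0 lower, against 10% and 16.5% over all genes. Their median was 2.88, with within-batch medians of 2.62 to 3.67. The other 66 were too low to test, and since a low gene can pass the filter through a group where it is high, the count describes the tested genes and not the family. The mean level of the tested members was 6.02, 5.94, 6.19 and 5.65 in the triple mutant and 2.44, 2.46, 2.39 and 2.30 in the daf-16 double mutant, against 3.79, 3.69, 4.02 and 3.64 in the htz-1 double mutant and 3.59, 3.01, 2.87 and 2.69 in daf-2. The gene fbxb-40 had 5.91, 6.51, 6.45 and 5.93 in the triple mutant and 2.64, 1.57, 1.65 and 1.35 in the daf-16 double mutant, against 2.21, 1.93, 2.96 and 2.09 in the htz-1 double mutant and 2.60, 3.62, 3.12 and 1.93 in daf-2, a difference of 4.92 ± 0.51 (SE, adjusted p = 6.25e-07). Of 29 fbxc genes tested of 48 in the file, 12 were higher and 1 lower. The shares were 41.4% and 3.45%, against 10% and 16.5% over all genes. Among them, fbxc-51 differed by 6.16 ± 0.63 (SE, adjusted p = 4.57e-07) and fbxc-29 by 4.94 ± 0.47 (SE, adjusted p = 2.37e-07). Of 97 fbxa genes tested of 159 in the file, 5 were higher and 22 lower, shares of 5.15% and 22.7%. The other 19 fbxc and 62 fbxa genes were too low to test, so the same limit holds for these counts. Reads of near-identical family members could be shared among them.

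Among histone genes the linker histones stood out by single members. Linker histones bind the DNA between nucleosomes. The H1 gene his-24 (WBGene00001898, chromosome X, 14490094 to 14491119) had 10.71, 11.67, 11.71 and 11.41 in the triple mutant and 6.30, 6.79, 7.91 and 7.08 in the daf-16 double mutant, against 8.04, 8.24, 7.55 and 7.56 in the htz-1 double mutant and 8.35, 6.94, 7.53 and 7.25 in daf-2, and the triple mutant lay above all other libraries, with a difference of 4.03 ± 0.43 (SE, adjusted p = 1.1e-06). The gene hil-3 differed by 2.51 ± 0.46 (SE, adjusted p = 0.000347). In all, 4 of 8 linker histone genes were higher and 2 lower, hil-1 and hil-8, shares of 50% and 25% against 10% and 16.5% over all genes. The call for hil-1, -1.95 ± 0.65 (SE, adjusted p = 0.0286), ended without any of 5 single libraries, with values of -1.66 without daf-16;daf-2 library 4, -1.67, -1.57 and -1.86 without triple mutant libraries 1, 2 and 4, and -1.76 without daf-2 library 1. Of 49 core histone genes tested of 70 in the file, whose near-identical copies could share reads, 1 was higher and 10 were lower. The share of lower genes, 20.4%, was near the 16.5% over all genes, and that of higher genes was 2.04% against 10%.

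**Figure D3:**
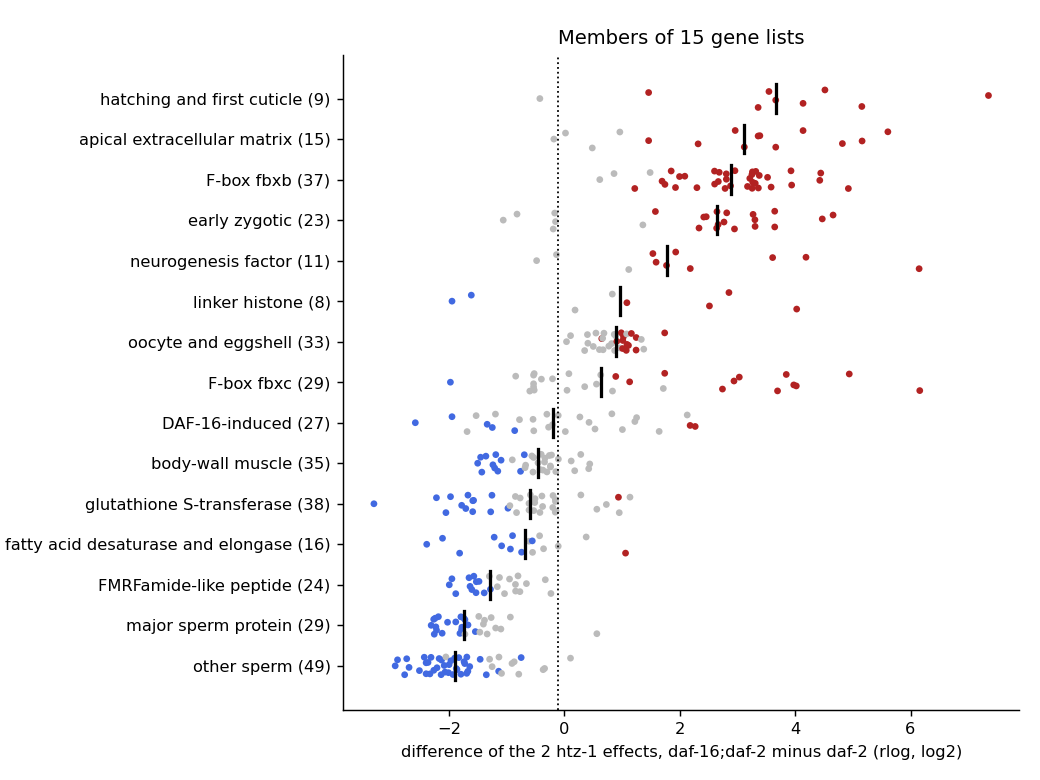
The difference of the htz-1 effects (daf-16;daf-2 minus daf-2, rlog, log2) for each tested member of 15 gene lists, with the number of members in parentheses. Red and blue points were called higher and lower, grey points were not called, black bars are list medians, and the dotted line is the median of all genes, -0.11, with every tested fbxb gene to its right.

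Most sperm genes fell with the htz-1 mutation in both backgrounds, and most had a lower difference. Major sperm proteins are the motility proteins of nematode sperm. Of 29 major sperm protein genes tested of 31 in the file, 29 fell in the daf-16 background and 29 in the daf-2 background. Over all genes 24.3% and 20.1% fell. The median effects on the 29 genes were -4.23 and -2.20. A lower difference was called for 18 (62.1%, against 16.5% over all genes), with within-batch medians of -4.04 to -0.40. Reads of near-identical copies could be shared among these genes. Of 49 other sperm genes, 38 (77.6%) were lower and 0 higher. Of these 49, 48 fell in the daf-16 background, and 41 fell and 1 rose in the daf-2 background, with median effects of -3.54 and -1.69. The mean level of these other sperm genes was 6.74, 6.602, 5.91 and 6.83 in the triple mutant and 9.82, 9.73, 9.92 and 9.77 in the daf-16 double mutant, against 7.40, 7.13, 7.35 and 7.50 in the htz-1 double mutant and 7.83, 9.20, 9.10 and 9.23 in daf-2. Library 1 of daf-2 lay more than 1 below the other daf-2 libraries, and library 3 of the triple mutant was the lowest of all 16.

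The gene msp-59 (WBGene00003452, chromosome IV, 5312728 to 5313111) had 11.50, 11.71, 10.64 and 12.37 in the triple mutant and 16.50, 15.58, 16.05 and 15.63 in the daf-16 double mutant, against 12.96, 12.65, 12.73 and 12.94 in the htz-1 double mutant and 13.70, 15.28, 15.39 and 15.22 in daf-2, a difference of -2.31 ± 0.46 (SE, adjusted p = 0.000803) with within-batch values of -4.25 to -0.99. For sss-1 the difference was -2.43 ± 0.43 (SE, adjusted p = 0.000309). Without both libraries that stood apart, 11 major sperm protein genes and 29 other sperm genes were lower, with medians of -0.90 and -1.32. Without library 1 of daf-2 alone the counts were 14 and 33. The uncharacterized genes R09E10.6 (-3.24), C50E10.1 (-4.26) and C18E9.8 (-4.22) had the same form, a fall in both backgrounds and a larger one in the daf-16 background. For C18E9.8 the values were 3.95, 5.13, 3.90 and 3.93 in the triple mutant and 10.61, 10.36, 10.88 and 10.62 in the daf-16 double mutant, against 7.01, 6.97, 6.97 and 7.26 in the htz-1 double mutant and 7.64, 9.95, 9.68 and 9.62 in daf-2. The collagen gene col-62 shared it too, with 5.45, 5.02, 6.16 and 5.05 in the triple mutant and 14.14, 14.89, 15.41 and 14.26 in the daf-16 double mutant, against 8.32, 8.39, 7.43 and 8.59 in the htz-1 double mutant and 11.0003, 13.78, 13.90 and 13.83 in daf-2, a difference of -4.31 ± 0.79 (SE, adjusted p = 0.00038).

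The number of oocyte and cell-cycle genes called depended on single libraries. Of 33 oocyte and eggshell genes, 13 (39.4%) were higher and 0 lower, against 10% and 16.5% over all genes. Their median was 0.89, with within-batch medians of 0.53 to 1.29. Leaving out 1 library changed the count of higher genes to 6 (daf-2 1, triple mutant 2), 7 (daf-16;daf-2 3 and 4, daf-2;htz-1 1, triple mutant 4), 8 (daf-2 3, daf-16;daf-2 2), 20 (daf-2 2) or 23 (triple mutant 1). The eggshell proteoglycan gene cpg-3 differed by 1.74 ± 0.36 (SE, adjusted p = 0.00111), with effects of 0.90 ± 0.25 in the daf-16 background and -0.84 ± 0.25 in the daf-2 background. For mex-6, which encodes an oocyte and early embryo RNA-binding protein, the difference was 1.11 ± 0.25 (SE, adjusted p = 0.00215). Of 33 DNA replication and cell cycle genes 11 were higher, a share of 33.3%, and between 4 and 6 without any one of 7 libraries (daf-2 1 and 3, daf-16;daf-2 3 and 4, daf-2;htz-1 1, triple mutant 2 and 4). The cyclin B3 gene cyb-3 differed by 1.47 ± 0.33 (SE, adjusted p = 0.00223).

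The tested genes of 1 neuropeptide family, flp, rose with the htz-1 mutation mostly in the daf-2 background. The flp genes encode FMRFamide-like neuropeptides. Of 24 tested of 30 in the file, 21 rose in the daf-2 background and 6 in the daf-16 background. Over all genes 20.4% and 24.1% rose, so the second count was near that share. A lower difference was called for 12 (50%, against 16.5% over all genes), with a median of -1.29 and within-batch medians of -1.40 to -1.03. Without library 2 of the triple mutant 7 were lower. The other 6 flp genes were below the minimum mean, which a low gene can pass through a group where it is high. The counts therefore describe the tested genes. Their mean level was 5.68, 5.12, 5.94 and 5.39 in the triple mutant and 5.01, 5.27, 5.36 and 5.11 in the daf-16 double mutant, against 6.80, 6.54, 6.73 and 6.83 in the htz-1 double mutant and 4.98, 5.26, 4.96 and 5.41 in daf-2. The htz-1 double mutant stood above every other library.

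The gene flp-9 had 8.02, 7.31, 7.40 and 7.22 in the triple mutant and 7.72, 7.85, 8.06 and 8.33 in the daf-16 double mutant, against 9.24, 8.81, 8.94 and 9.01 in the htz-1 double mutant and 7.33, 8.21, 7.80 and 8.11 in daf-2, a difference of -1.63 ± 0.32 (SE, adjusted p = 0.000684). For flp-13 it was -1.99 ± 0.42 (SE, adjusted p = 0.00135). The neuropeptide receptor family gene npr-26 (WBGene00011372, chromosome IV, 17408230 to 17417823) had 5.08, 4.88, 4.94 and 4.07 in the triple mutant and 4.94, 4.56, 3.72 and 4.72 in the daf-16 double mutant, against 8.44, 8.16, 8.17 and 8.25 in the htz-1 double mutant and 4.53, 3.85, 4.09 and 4.66 in daf-2, a difference of -3.71 ± 0.44 (SE, adjusted p = 3.08e-06), with a separate htz-1 double mutant. Of 28 general neuron markers 5 were lower, a share of 17.9% near the 16.5% over all genes, with a median of -0.42. The count was 2 without daf-2 library 1 and 3 without daf-16;daf-2 library 3 or triple mutant library 4. Of 35 genes on the body-wall muscle list 11 were lower, a share of 31.4%, among them the actin-bundling protein gene unc-87 (-1.19). That count was 8 without daf-2 library 1, 8 without triple mutant library 3 and 6 without both. The median of the muscle list was -0.46, with within-batch medians of -1.05 to -0.08.

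**Figure D4:**
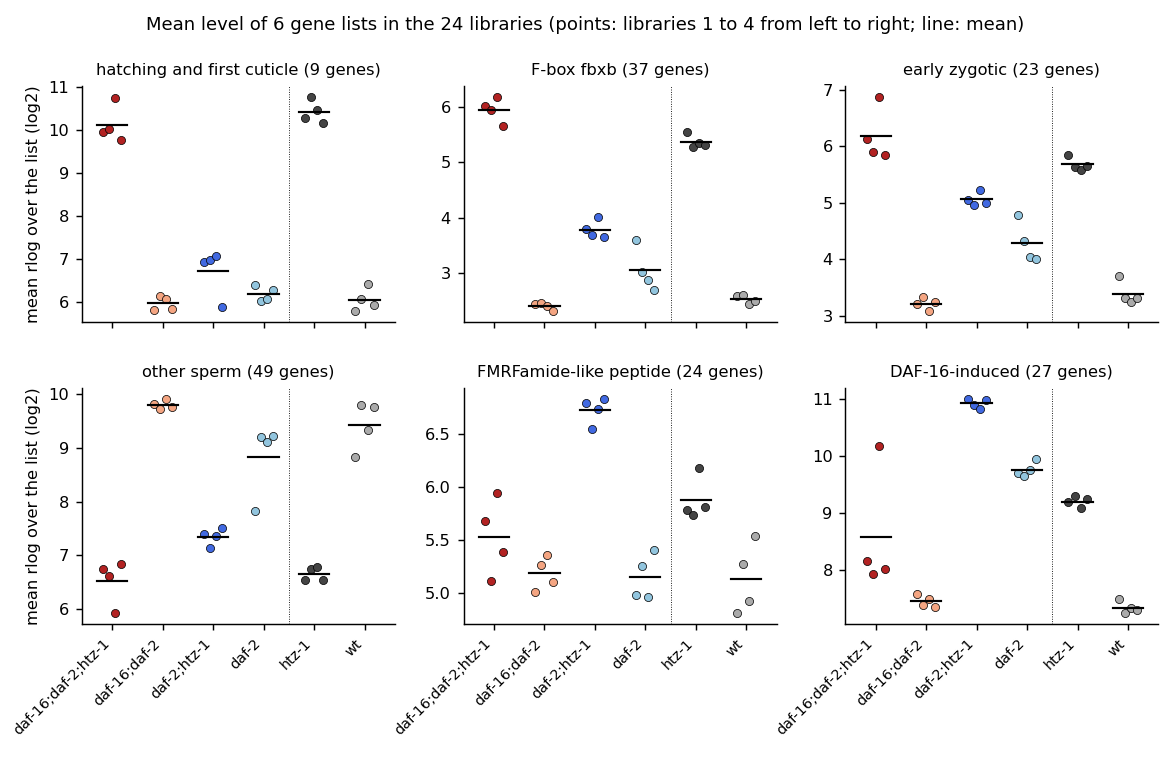
The mean rlog value (log2) over the tested members of 6 gene lists in each of 24 libraries, with libraries 1 to 4 of a group from left to right, the group mean as a line, and the htz-1 and wt libraries to the right of the dotted line. For hatching and first cuticle genes the triple mutant (9.77 to 10.76) overlaps htz-1 (10.16 to 10.78) while daf-2;htz-1 overlaps the groups without the htz-1 mutation through library 4 alone (5.87, against 6.92 to 7.06 in libraries 1 to 3 and at most 6.43 in those groups), and library 3 of the triple mutant is the highest of its group for DAF-16-induced genes.

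Several genes rose with the htz-1 mutation in the daf-2 background and rose less, or fell, in the daf-16 background. The beta-tubulin gene tbb-6 (WBGene00006539, chromosome V, 12261531 to 12263368) had 7.90, 7.54, 7.87 and 7.59 in the triple mutant and 6.41, 6.15, 6.06 and 6.07 in the daf-16 double mutant, against 11.999, 11.86, 11.79 and 11.83 in the htz-1 double mutant and 6.41, 7.01, 6.72 and 5.89 in daf-2. The htz-1 double mutant lay more than 3 above every other library, and the difference was -3.81 ± 0.28 (SE, adjusted p = 1.03e-08), with effects of 1.55 ± 0.20 in the daf-16 background and 5.36 ± 0.20 in the daf-2 background. The thaumatin family gene thn-2 had 11.12, 10.73, 11.54 and 11.29 in the triple mutant and 9.55, 9.62, 9.47 and 9.33 in the daf-16 double mutant, against 12.67, 12.42, 12.13 and 12.41 in the htz-1 double mutant and 8.35, 7.58, 7.43 and 7.90 in daf-2, effects of 1.68 ± 0.21 in the daf-16 background and 4.59 ± 0.21 in the daf-2 background and a difference of -2.91 ± 0.30 (SE, adjusted p = 5.83e-07). For argk-1, which encodes an arginine kinase, the difference was -4.44 ± 0.63 (SE, adjusted p = 3.05e-05), from a fall of 2.97 in the daf-16 background and a rise of 1.47 in the daf-2 background.

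The largest negative difference was that of the uncharacterized gene D1086.9 (WBGene00008396, chromosome V, 14104270 to 14106330), with 1.86, 0.96, 7.01 and 1.24 in the triple mutant and 1.00, 1.23, 1.33 and 0.94 in the daf-16 double mutant, against 10.34, 10.72, 9.55 and 10.43 in the htz-1 double mutant and 4.19, 0.79, 1.37 and 1.21 in daf-2. Library 3 of the triple mutant and library 1 of daf-2 stood above the rest of their groups, and the difference was -6.72 ± 1.21 (SE, adjusted p = 0.000324), or -8.14 without that triple mutant library. The gene printed by its identifier, WBGene00014732, had effects of 1.42 ± 0.54 in the daf-16 background (adjusted p = 0.0339) and 7.04 ± 0.54 in the daf-2 background, a difference of -5.62 ± 0.77 (SE, adjusted p = 1.92e-05). Without library 3 of the triple mutant its effect in the daf-16 background was 0.71 and not called (adjusted p = 0.206). The gene F33H12.7 rose in both backgrounds and less in the daf-16 background, with a difference of -5.25 ± 0.98 (SE, adjusted p = 0.000445). The lectin-domain gene clec-210 had 8.79, 8.03, 7.84 and 7.03 in the triple mutant and 7.97, 7.26, 7.21 and 7.19 in the daf-16 double mutant, against 7.71, 7.36, 7.87 and 7.63 in the htz-1 double mutant and 3.49, 2.64, 2.41 and 2.71 in daf-2, a difference of -4.32 ± 0.51 (SE, adjusted p = 3.32e-06). Here daf-2 alone was low.

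Among genes of detoxification and lipid metabolism, glutathione S-transferase and fatty acid genes had more lower calls than the background of 16.5%. Glutathione S-transferases conjugate glutathione to toxic compounds. Of 38 of their genes 13 were lower and 1 higher (2 without daf-2 library 1 or triple mutant library 3, and 0 without library 1 of the htz-1 double mutant), with a median of -0.60. The gene gst-10 had 11.31, 11.04, 11.64 and 11.23 in the triple mutant and 11.58, 12.17, 11.81 and 11.81 in the daf-16 double mutant, against 13.15, 12.95, 12.96 and 13.13 in the htz-1 double mutant and 11.77, 11.66, 11.79 and 12.01 in daf-2, a difference of -1.78 ± 0.24 (SE, adjusted p = 1.93e-05), and gst-6 differed by -1.97 ± 0.31 (SE, adjusted p = 9.2e-05). Of 16 fatty acid desaturase and elongase genes 9 were lower and 1 higher, the elongase gene elo-5, whose call ended without any one of 10 libraries. The desaturase gene fat-2 had 13.75, 13.88, 14.60 and 13.86 in the triple mutant and 13.58, 13.87, 13.74 and 13.78 in the daf-16 double mutant, against 14.94, 15.04, 14.73 and 14.88 in the htz-1 double mutant and 13.45, 13.44, 13.62 and 13.60 in daf-2, a difference of -1.09 ± 0.24 (SE, adjusted p = 0.00174). Among UDP-glucuronosyltransferases 4 were higher and 13 lower of 60, among cytochrome P450 genes 6 and 10 of 61, and among C-type lectin clec genes 18 and 20 of 113, with shares of lower genes of 21.7%, 16.4% and 17.7% against 16.5% over all genes.

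Other genes fell in the daf-16 background alone. The kinesin gene klp-4 (WBGene00002217, chromosome X, 3171420 to 3178701), whose product moves cargo along axons, had 6.86, 6.17, 6.52 and 6.11 in the triple mutant and 9.75, 9.67, 9.72 and 9.52 in the daf-16 double mutant, against 6.79, 6.98, 6.86 and 6.82 in the htz-1 double mutant and 6.23, 6.77, 6.73 and 6.16 in daf-2. The daf-16 double mutant lay more than 2 above all other libraries, so the htz-1 effect there was -3.25 ± 0.25 against 0.39 ± 0.25 in the daf-2 background, and the difference was -3.64 ± 0.35 (SE, adjusted p = 2.79e-07). The gene vap-2 had 4.99, 5.37, 6.99 and 5.17 in the triple mutant and 10.51, 10.70, 11.27 and 10.54 in the daf-16 double mutant, against 10.65, 10.55, 10.58 and 10.85 in the htz-1 double mutant and 10.09, 11.71, 11.58 and 11.90 in daf-2, a difference of -4.46 ± 0.61 (SE, adjusted p = 1.79e-05), with a triple mutant that lay below all other libraries. The uncharacterized gene F21H7.2 differed by -2.99 ± 0.38 (SE, adjusted p = 8.69e-06).

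A smaller set fell in the daf-2 background and so had a higher difference. The uncharacterized gene Y49E10.16 (WBGene00013035, chromosome III, 12430509 to 12433866) had 9.64, 9.39, 9.98 and 9.68 in the triple mutant and 9.38, 9.82, 9.80 and 9.77 in the daf-16 double mutant, against 4.67, 5.47, 5.24 and 4.93 in the htz-1 double mutant and 9.04, 9.62, 9.53 and 9.69 in daf-2. The htz-1 double mutant lay more than 3 below the other groups, which overlapped each other, and the effects were -0.02 ± 0.24 in the daf-16 background and -4.39 ± 0.24 in the daf-2 background, a difference of 4.37 ± 0.34 (SE, adjusted p = 1.06e-08). The gene clec-218 differed by 2.71 ± 0.35 (SE, adjusted p = 1.08e-05) and the uncharacterized gene T16G12.1, which fell in both backgrounds and further in the daf-2 background, by 2.43 ± 0.29 (SE, adjusted p = 3.32e-06). Signs were opposite for the beta-galactosidase family gene bgal-2, with effects of 2.82 ± 0.26 in the daf-16 background and -2.012 ± 0.26 in the daf-2 background and a difference of 4.84 ± 0.37 (SE, adjusted p = 1.06e-08). The collagen gene col-43 had effects of 2.13 ± 0.42 in the daf-16;daf-2 background and -2.102 ± 0.42 in the daf-2 background, a difference of 4.23 ± 0.59 (SE, adjusted p = 2.51e-05). The yolk protein gene vit-1 differed by 2.82 ± 0.68 (SE, adjusted p = 0.00376), as the single called member of 6 vitellogenin genes (2 were called without library 1 of the daf-16 double mutant).

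Known DAF-16 target genes were called in both directions, and leaving out single libraries moved these counts. Of 27 DAF-16-induced genes 2 were higher and 5 lower, shares of 7.41% and 18.5% near the 10% and 16.5% over all genes, with a median of -0.20. Their mean level was 8.15, 7.92, 10.18 and 8.02 in the triple mutant and 7.57, 7.38, 7.48 and 7.35 in the daf-16 double mutant, against 11.01, 10.90, 10.83 and 10.99 in the htz-1 double mutant and 9.70, 9.64, 9.75 and 9.95 in daf-2. Library 3 of the triple mutant lay about 2 above the other 3 of its group. Without it 2 were higher and 9 lower, with a median of -0.62, and without another single library the number of lower genes was 2 (daf-2 1, daf-16;daf-2 4, triple mutant 2 or 4) or 3 (daf-16;daf-2 3, triple mutant 1). The number of higher genes was 1 (daf-2 1, daf-16;daf-2 2, 3 or 4), 4 (daf-2 2, daf-16;daf-2 1) or 5 (triple mutant 1) in the same way.

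A well-known target, sod-3 (WBGene00004932, chromosome X, 17092753 to 17094306), which encodes a mitochondrial superoxide dismutase, had 2.31, 2.15, 7.23 and 3.40 in the triple mutant and 4.17, 4.92, 4.82 and 5.50 in the daf-16 double mutant, against 9.35, 9.33, 9.27 and 9.35 in the htz-1 double mutant and 8.69, 8.84, 8.80 and 9.17 in daf-2. Its difference was -1.53 ± 0.92 (SE, adjusted p = 0.227), and -2.68 (adjusted p = 0.000254) without library 3 of the triple mutant, in a range of adjusted p from 2.11e-05 to 0.596 over all alternatives. For mtl-1 (WBGene00003473, chromosome V, 6691371 to 6691863), another target, which encodes a metal-binding metallothionein, the values were 8.87, 7.26, 14.51 and 7.28 in the triple mutant and 5.94, 5.99, 5.77 and 5.82 in the daf-16 double mutant, against 15.65, 15.21, 15.39 and 15.58 in the htz-1 double mutant and 13.31, 12.75, 12.56 and 12.84 in daf-2. The difference of 1.01 ± 1.24 (SE, adjusted p = 0.581) became -0.67 without that library, so its sign rested on it, and neither value was called. The gene dod-17, which is lower where DAF-16 is active, had 10.14, 10.58, 9.81 and 10.39 in the triple mutant and 12.04, 12.44, 12.33 and 12.05 in the daf-16 double mutant, against 8.79, 8.47, 8.04 and 8.51 in the htz-1 double mutant and 7.32, 7.91, 8.42 and 8.03 in daf-2. It fell with the htz-1 mutation by 1.99 in the daf-16 background, where it was high, and the difference was -2.52 ± 0.48 (SE, adjusted p = 0.00059), or -2.38 without library 3 of the triple mutant.

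Other members went either way. The glycerol-3-phosphate dehydrogenase gene gpdh-1 differed by -2.58 ± 0.41 (SE, adjusted p = 0.000107) and dao-3 by -1.34 ± 0.36 (SE, adjusted p = 0.00741), while dod-3 differed by 2.18 ± 0.65 (SE, adjusted p = 0.0153). The long non-coding RNA tts-1 differed by 2.27 ± 0.75 (SE, adjusted p = 0.0279), and its call was lost without daf-16;daf-2 library 2, 3 or 4 (2.12, 2.16 and 1.99), triple mutant library 3 (1.65) or daf-2 library 1 (2.19). Of 16 DAF-16-repressed genes 2 were higher and 1 lower, shares of 12.5% and 6.25% against 10% and 16.5% over all genes. Without 1 library the count of higher genes was 1 (daf-2 1 or 3, daf-16;daf-2 4, daf-2;htz-1 1 or 4, triple mutant 2 or 4) and that of lower genes 2 (daf-16;daf-2 1, daf-2;htz-1 2 or 3, triple mutant 1) or 3 (daf-2;htz-1 4).

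Of 22 genes of the insulin/IGF-1 pathway 5 were higher (22.7%) and 1 lower (4.55%), against 10% and 16.5% over all genes, with a median of 0.17. The kinase gene pdk-1, whose product acts below the receptor, had 7.84, 9.03, 8.90 and 8.75 in the triple mutant and 7.15, 6.17, 7.02 and 6.86 in the daf-16 double mutant, against 7.64, 8.36, 8.28 and 8.30 in the htz-1 double mutant and 7.91, 7.998, 8.29 and 7.72 in daf-2, a difference of 1.67 ± 0.38 (SE, adjusted p = 0.00226). The kinase gene sgk-1 differed by -0.71 ± 0.20 (SE, adjusted p = 0.0102). Without 1 library the count of higher genes was 2 (daf-2 1 and 3, daf-16;daf-2 3 and 4, daf-2;htz-1 1, triple mutant 2), 3 (daf-2;htz-1 4) or 8 (daf-16;daf-2 1). Insulin-like peptide genes, the ligands, were split, with 4 higher and 4 lower of 20 tested of 38 in the file. Each share was 20%, against 10% and 16.5% over all genes. The other 18 were below the minimum mean, which a low gene can pass through a group where it is high. The gene ins-2 had 7.27, 7.03, 6.57 and 7.19 in the triple mutant and 1.48, 1.69, 1.78 and 1.77 in the daf-16 double mutant, against 2.36, 3.62, 1.61 and 1.41 in the htz-1 double mutant and 1.79, 3.62, 3.35 and 1.67 in daf-2, and only the triple mutant of these 4 groups was above 4, a difference of 5.70 ± 0.66 (SE, adjusted p = 2.39e-06). In the other direction ins-6 differed by -2.56 ± 0.67 (SE, adjusted p = 0.00676) and ins-26 by -2.51 ± 0.68 (SE, adjusted p = 0.00816). Without 1 library the count of higher peptide genes was 2 (daf-2 1, daf-16;daf-2 2, daf-2;htz-1 2, triple mutant 1 or 3).

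H2A.Z is placed in chromatin by remodelling complexes. Of 13 genes of H2A.Z and its deposition 2 were higher and 0 lower, shares of 15.4% and 0% against 10% and 16.5% over all genes, with a median of 0.30. Without 1 library the count of higher genes was 1 (daf-2 1 or 3, any of daf-2;htz-1, triple mutant 2 or 4) or 4 (daf-2 2 or 4, daf-16;daf-2 1, triple mutant 1). The gene trr-1, which encodes a TRRAP-like subunit, differed by 1.48 ± 0.38 (SE, adjusted p = 0.0059). The other called member, the actin-related protein gene arp-6, at 0.51 ± 0.18 (SE, adjusted p = 0.0429), lost its call in 20 of 31 alternatives, and with the labelled batch as a block its adjusted p was 0.0523, within a range of 0.00998 to 0.361 over the alternatives.

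The same comparison can be read as the daf-16 effect with and without the htz-1 mutation. Between the triple mutant and the htz-1 double mutant 1853 genes were higher (12.8%) and 2518 lower (17.4%), and between the daf-16 double mutant and daf-2 2319 were higher (16%) and 1397 lower (9.65%). The second pair depended on single libraries, with 1283 and 891 without daf-2 library 1 and 1440 and 913 without daf-16;daf-2 library 3. In the klp-4 values above, for example, the daf-16 double mutant exceeded daf-2 by 3.19 ± 0.25 while the triple mutant differed from the htz-1 double mutant by -0.45 ± 0.25 (SE). For tbb-6 the order was the reverse, with -0.33 ± 0.20 between the daf-16 double mutant and daf-2 and -4.15 ± 0.20 between the 2 groups with the htz-1 mutation.

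The htz-1 and wt libraries, whose means are not part of this contrast, show what the htz-1 mutation did where daf-2 and daf-16 are intact. Of the 1449 higher genes, 51.6% rose in htz-1 against wt and 5.94% fell, against 26.4% and 24.5% of all genes tested. Of the 2389 lower genes, 59.9% fell and 14.1% rose. Among genes with differences of at least 2, 84.6% of 370 higher genes rose and 83.0% of 959 lower genes fell. The median effect of the higher genes was 1.13 in the daf-16 background, -0.18 in the daf-2 background and 0.57 in wt, and that of the lower genes was -1.72, -0.23 and -1.29. For 64.1% of the higher and 71.8% of the lower genes the effect in wt was nearer to that in the daf-16 background, against 56.0% of all genes. Across all 14482 genes the effect in wt had a Pearson correlation of 0.920 with that in the daf-16 background and 0.781 with that in the daf-2 background (Spearman 0.845 and 0.747). These pairs share no library, and genes are not independent replicates, so this is a description.

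**Figure D5:**
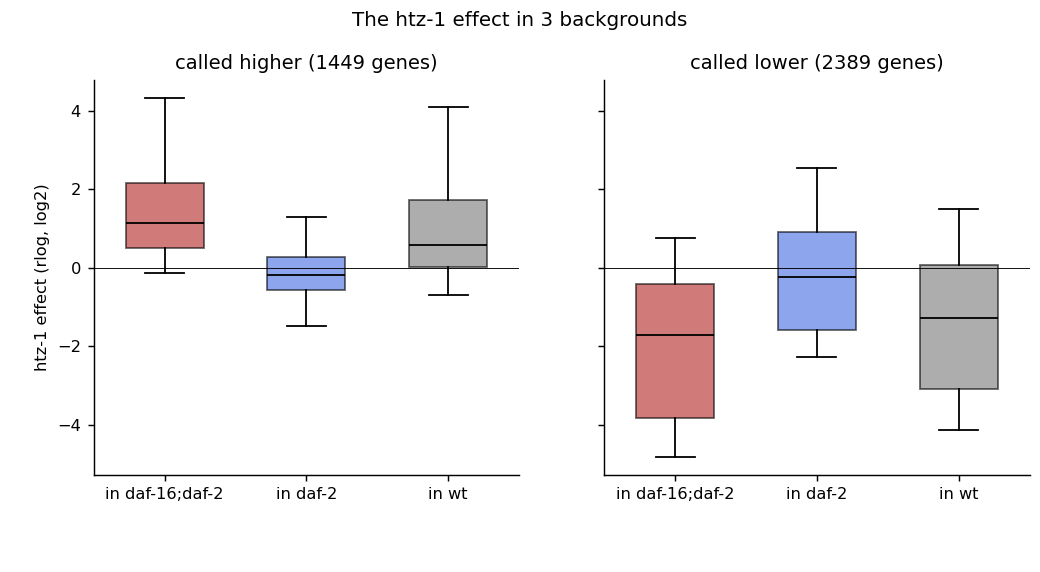
The htz-1 effect (rlog, log2) in daf-16;daf-2, in daf-2 and in wt for the 1449 genes called higher and the 2389 called lower. Boxes span the quartiles with the median as a line and whiskers reach the 5th and 95th percentiles, and the wt medians lie between the others and nearer to daf-16;daf-2, at 0.57 and -1.29.

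Lists differed in where the wt median lay. Of 44 lists it was nearer to that in the daf-16 background in 27 and nearer to that in the daf-2 background in 17, and in 13 it lay between them and nearer to the daf-16 background. The median htz-1 effect on hatching and first cuticle genes was 4.02 in the daf-16 background, 0.80 in the daf-2 background and 3.97 in wt, and on fbxb genes 3.51, 0.90 and 3.00. For other sperm genes it was -3.54, -1.69 and -2.89. On oocyte and eggshell genes it was 0.59, -0.33 and -0.10, and on core histone genes 0.70, 1.29 and 1.34, with wt nearer to the daf-2 background in both lists. The effect on hch-1 in wt was 8.68 ± 0.65 (SE, adjusted p = 1.67e-10) and on noah-1 5.16 ± 0.28 (adjusted p = 1.64e-12). Among single genes, klp-4 had 0.44 ± 0.25 in wt, near its effect in the daf-2 background. The gene mtl-1 rose by 8.82 ± 0.88 in wt, against 3.60 ± 0.88 in the daf-16 background and 2.59 ± 0.88 in the daf-2 background. Without library 3 of the triple mutant its effect in the daf-16 background was 1.92, so the order of the last 2 effects rested on that library.

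Some named values carry a further uncertainty. Strand was not recorded by the library type, and 27 of the 150 genes selected by rule lie over an opposite-strand coding gene, among them sod-3, clec-266, cht-1, vap-2, clec-210, gpdh-1, pdk-1, cpg-3, bgal-2, tnc-2, unc-87 and R09E10.6. Of the 145 called genes selected by rule, 98 kept their call in every one of the 31 alternatives that tested them, 84 of these in all 31, and 14 fell below the minimum mean of 5 in 1 alternative. The 20 with the largest differences were among the 98, and 5 of these 20 were not tested at that minimum.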

How the data were processed

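RNA of whole young adult worms was extracted with Trizol and a miRNeasy Micro kit, and libraries followed the SMART-Seq2 protocol, per the labels' protocols. SMART-Seq2 does not mark strand. The values are regularized log2 values as deposited by the authors, 1 per gene and library. The submitters' processing notes name bcl2fastq 2.20, kallisto 048.0 and the build WBcel235, and tool settings or batch correction were not given in the sources used here. Differences of low genes are shrunk by rlog, and depth is unknown, so no counting interval was computed.

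Groups came from the labels. With limma 3.58.1 in R 4.3.3, all 24 libraries entered 1 linear model that gives every group its own mean (intensity trend, 18 residual degrees of freedom), for genes with a mean of at least 3. The difference (triple mutant minus daf-16 double mutant) minus (htz-1 double mutant minus daf-2) was tested 2-sided, with Benjamini-Hochberg adjustment over 14482 genes and a threshold of 0.05. The fit was tested on simulated data. Replicate numbers equal the labelled batch, so the labels pair the libraries. Deviations from group means had a mean correlation of -0.01 within a batch and 0.01 between batches, and a fit with the batch as a block is among the alternatives.

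Of 21689 identifiers, 20315 had a symbol in the annotation (Ensembl release 115) and the 1374 others are printed by identifier. The members and the 44 gene lists were chosen with earlier results of these data known. The rule took htz-1, daf-2, daf-16, sod-3, mtl-1 and dod-17, the 10 largest called differences in each direction with the same sign in all 4 batches, up to 2 called members per list and direction, and 2 genes per pattern and direction, and some of these are printed. One gene that the rule took is not reported here. Within groups the correlation between libraries was 0.949 to 0.991 and no library was a duplicate. Alternatives were the block, other filters and scalings, array weights, robust variance, no trend, a fit of the 16 libraries alone, and leaving out every batch and every library singly. The alternatives without triple mutant library 3 together with the block or with daf-2 library 1 left out were chosen after seeing the data.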

Additional observations from a re-analysis of the deposited data

Results flagged for a closer look

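Of 280 groups of 4 libraries, 27 held a library far from the other 3 by Dixon's criterion, where chance gives about 1 in 20, or 14. Each value below is that of the library, with the median of the other 3 of its group after it.

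Library 3 of the triple mutant had a mean of 10.18 over DAF-16-induced genes, against 8.02. It also had 7.01 for D1086.9, against 1.24, 5.86 for WBGene00014732, against 2.97, and 12.77 for F45D11.14, against 9.82. Library 1 of daf-2 had a mean of 7.83 over other sperm genes, against 9.20, and 8.85 over collagen genes, against 10.08. Among single genes it had 11.0003 for col-62, against 13.83, 7.64 for C18E9.8, against 9.68, 4.19 for D1086.9, against 1.21, and 9.10 for clec-266, against 6.29.

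Library 1 of the daf-16 double mutant had a mean of 12.62 over oocyte and eggshell genes, against 12.13, and 18.04 over vitellogenin genes, against 16.58. Its means over pharynx, nuclear hormone receptor and fbxa genes were 5.65, 5.99 and 5.25, against 5.33, 6.07 and 5.63, and its clec-210 value was 7.97, against 7.21. Library 3 of that group had 6.32 for cht-1, against 5.15.

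Library 4 of the htz-1 double mutant had means of 5.87 over hatching and first cuticle genes, against 6.98, and 5.19 over apical extracellular matrix genes, against 5.67. It had 11.28 for htz-1, against 11.35, and 7.26 for C18E9.8, against 6.97. Library 2 of that group had 5.53 for argk-1, against 4.87, and library 3 had 12.51 for F45D11.14, against 12.85. In the triple mutant, library 1 had 17.09 over vitellogenin genes, against 18.27, and 8.47 for daf-16, against 9.55. Library 2 had 5.13 for C18E9.8, against 3.93, and library 4 had 10.13 for hch-1, against 10.52.

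The htz-1 effect had opposite signs in the 2 backgrounds, called in each, for 72 genes with a higher difference and 91 with a lower one, where the difference itself was tested.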

How the results depend on the processing

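With the labelled batch as a replicate block, 1477 genes were higher and 2485 lower, and among 145 called named genes 2 lost the call, arp-6 and ilys-3. The block changed no other call among them. Centring each library gave 2256 higher genes, and array weights 2590 higher and 3683 lower. For the daf-16 effect with the htz-1 mutation array weights gave 3525 higher and 4235 lower genes. Leaving out a library or a batch gave 757 to 1759 higher and 1506 to 2610 lower genes for the difference, 2740 to 3518 and 2891 to 3550 for the htz-1 effect in the daf-16 background, and 2214 to 3053 and 2191 to 3008 in the daf-2 background. It gave 1187 to 2205 and 1407 to 2710 for the daf-16 effect with the htz-1 mutation, and 1283 to 2455 and 873 to 1552 without it. Without batch 2, 3 or 4 the difference had 894, 757 or 838 higher genes, and 1506 lower without batch 4. The daf-16 effect with the htz-1 mutation had 1187 higher and 1617 lower genes without batch 2 and 1196 and 1407 without batch 4. Without the htz-1 mutation it had 1373 and 891 without batch 3, 1386 and 873 without batch 4, 1283 and 891 without daf-2 library 1 and 1440 and 913 without daf-16;daf-2 library 3. Without daf-2 library 1 and triple mutant library 3 the daf-16 effect without the htz-1 mutation had 1535 higher genes. The sign of mtl-1 turned with array weights (-0.71), without batch 3 (-0.63), without triple mutant library 3 (-0.67, in a range up to 1.75 over single libraries left out), without it under the block (-0.76) and without it and daf-2 library 1 (-0.82). That of daf-2 turned without batch 2 (-0.029). Neither was called in any of these. Of the 145 named calls, 17 ended without some single library. The cause was not tested, and depth is unknown, so what it limits could not be computed.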

Other observations

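The calls were spread over all nuclear chromosomes, at unequal rates. Of 2507 genes tested on chromosome IV 21.2% were lower and 9.21% higher, and of 2777 on chromosome V 18.3% were lower and 7.09% higher. Of 1956 genes on the X chromosome 12.27% were higher and 14.2% lower.

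Of 111 col collagen genes, which form the cuticle, 72 fell with the htz-1 mutation in the daf-16 background and 78 in the daf-2 background, with medians of -2.14 and -2.51. Only 3 had a higher and 10 a lower difference (16 lower without library 3 of the triple mutant). The shares were 2.70% and 9.01%, below the 10% and 16.5% over all genes. Ribosomal protein genes had a median difference of -0.83, with within-batch medians of -2.19 to 0.14, so the sign was not the same in every batch. Of 78 tested 5 were called lower, a share of 6.41% below the 16.5% over all genes. Leaving out 1 library gave 2 (daf-2 2, daf-16;daf-2 3, daf-2;htz-1 1, triple mutant 3), 3 (daf-2 3, triple mutant 2), 11 (triple mutant 1), 20 (daf-16;daf-2 1), 26 (triple mutant 4) or 27 (daf-2 4).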
